A study of Rattus norvegicus with 2 samples.

Results

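Genes of the retinal endothelium, of the pericytes and smooth muscle cells around it, and of the barrier they form were compared between a sham-operated and an ischemic rat retina. The rule named 35 genes by their role in leukocyte adhesion, cell junctions, transport, growth factor signalling, endothelial identity or mural cells. Measured values were no part of the rule, but earlier results of these data were known when the genes were chosen. Of the 35 genes, 33 have a row under the same symbol among the 32662 genes of the expression table. Pecam1 and Abcb1a were not analysed here. Both libraries came from retinas of Long-Evans rats aged 2 months, described in the study's methods as female. CTRL had a sham procedure, and IR12 was collected 12 hours after reperfusion that followed a period of ischemia. Each condition is 1 library of total RNA depleted of ribosomal RNA, so no difference below has a replicate check and no test was possible. The study's text speaks of 2 retinas for the 2 libraries.

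The inner retina is fed by capillaries whose endothelial cells are sealed to each other by tight and adherens junctions and carry few transport vesicles. Pericytes wrap these capillaries, and signals between both cell types, such as PDGF-B and the angiopoietins, keep the barrier closed to plasma proteins. When endothelium is activated by inflammatory cytokines it places selectins and immunoglobulin-type adhesion molecules on its surface, to which passing leukocytes bind before they leave the vessel.

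Levels are given as FPKM, the reads of a gene scaled to its transcript length and to library size, so levels of different genes can be set beside each other. Differences are log2 ratios of FPKM plus 1, IR12 over CTRL, a scale that understates the change of genes with low values. A gene passed the minimum when its FPKM was at least 1 in either library, and a gene is said to have risen or fallen when this log2 ratio reached 1 or -1, the 2-fold limit on this scale. A gene with low values can stay within that limit although its FPKM itself differs by more than 2-fold. The table holds no read counts, but the lowest values of single-exon olfactory receptor genes moved in steps of 1 read. At a length of 930 bases, a single read corresponded to 0.0892 FPKM for CTRL but to 0.0522 FPKM for IR12. A value of 3 such reads is 0.268 FPKM in CTRL and 0.157 FPKM in IR12, and a longer transcript collects more reads at the same FPKM. Retina as the source shows in the rod gene Sag, which encodes the arrestin of photoreceptors, at 2482 FPKM in CTRL and 4703 FPKM in IR12. The median level over the 33 genes, those under the minimum included, was 2.56 FPKM in CTRL and 2.12 FPKM in IR12. Over all genes of the table that passed the minimum, the median level was 12.5 FPKM in CTRL and 12.9 FPKM in IR12.

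Of the 33 genes, 25 passed the minimum. Among them 5 rose in IR12, namely Icam1, Sele, Selp, Eng and Flt1, while 6.56% of the 13599 genes that passed in the whole table were at least 2-fold higher. Another 3 fell, namely Slco1a4, Ocln and Rgs5, beside 6.12% of all genes that passed. The remaining 17 stayed within the limit, among them Acta2 and Abcc9, whose FPKM was 2.59 and 2.23 times higher in CTRL. The median log2 ratio of the 25 genes was -0.02, and that of all genes that passed was 0.02, so the middle of the vascular list lay within 0.04 of the middle of all genes and the differences lay in single genes and roles. The minimum bears on these counts. It was met through IR12 alone by 6 genes (Icam1, Icam2, Sele, Selp, Cdh5 and Eng) and through CTRL alone by 3 (Ocln, Mfsd2a and Acta2). The scale bears on them too, because small non-coding RNAs made up 67.9% of the summed FPKM in CTRL and 46.3% in IR12. With both libraries brought to the same sum (TPM scale), the median of all genes moved from 0.02 to 0.59. On that scale 6 of the 25 genes were at least 2-fold higher, with Angpt2 added, and only Slco1a4 was at least 2-fold lower, beside 20.7% and 3.21% of all genes. Gapdh, the reference gene of the study, had 715.9 FPKM in CTRL and 690.1 FPKM in IR12 as deposited.

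**Figure D1:**
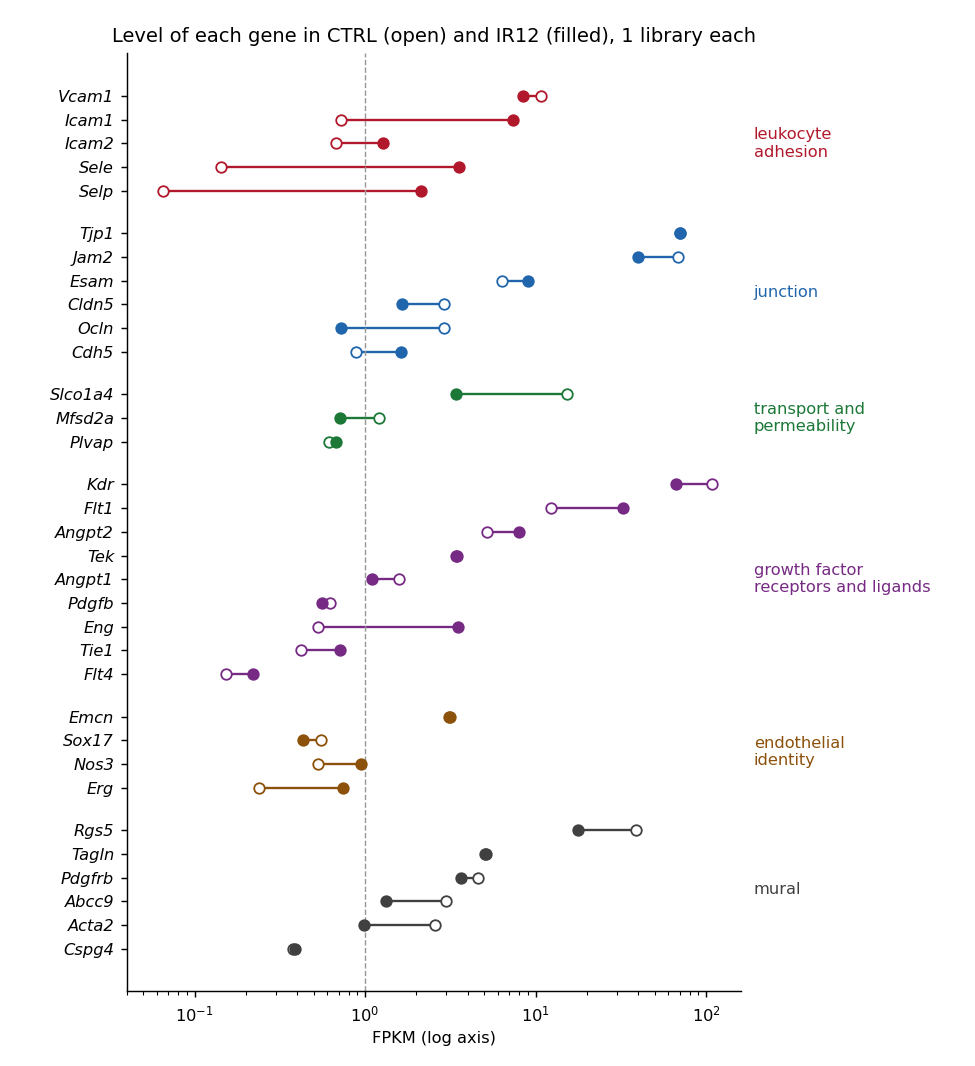
FPKM of the 33 genes on a log axis, 1 row per gene, grouped by role, with CTRL as open and IR12 as filled circles, 1 library each; where only a filled circle shows, both values coincide. The dashed line is the minimum of 1 FPKM, and the longest lines belong to Selp, Sele and Icam1.

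The adhesion genes Icam1 and Sele had the largest log2 ratios of the list as deposited, in either direction. Icam1, the ligand of leukocyte integrins LFA-1 and Mac-1, was at 0.718 FPKM in CTRL and 7.32 FPKM in IR12, an FPKM ratio of 10.2 and a log2 ratio of 2.28. Sele, the endothelial selectin made after cytokine stimulation, was at 0.142 FPKM in CTRL and 3.54 FPKM in IR12, a log2 ratio of 1.99. Selp, the selectin that endothelial cells and platelets store in granules, was at 0.0656 FPKM in CTRL and 2.12 FPKM in IR12, a log2 ratio of 1.55. The CTRL values of both selectins lie below what 3 reads are worth at 930 bases, so the size of their rise is poorly fixed and no FPKM ratio is given. These 3 genes passed the 2-fold limit under each of 5 settings of scale and pseudocount, with log2 ratios of 2.25 to 3.18 for Icam1, 1.97 to 3.91 for Sele and 1.53 to 3.75 for Selp.

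Vcam1 did not go with them. This ligand of the leukocyte integrin VLA-4 was the most abundant adhesion gene of CTRL, at 10.8 FPKM, and stood at 8.48 FPKM in IR12, a log2 ratio of -0.32 that became 0.27 on the TPM scale. Icam2, an integrin ligand that resting endothelium carries constitutively, was at 0.671 FPKM in CTRL and 1.28 FPKM in IR12, a log2 ratio of 0.45. In CTRL, then, Vcam1 alone of the 5 measured adhesion genes was above 1 FPKM, whereas in IR12 all 5 were, and Icam1 came within 1.16 FPKM of Vcam1. The group had a median log2 ratio of 1.55, and of 0.98 over Icam1 and Vcam1, the genes with at least 5 FPKM in either library.

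The listed promoter windows of Icam1, Vcam1 and Sele are shown because these adhesion genes are known targets of NF-kB and yet differed in these libraries. Each sequence runs from 250 bases before to 50 bases after the start of the gene in RefSeq on GRCr8, 5′ to 3′ along the gene. The window lies at chr8:27829595-27829894 on the plus strand for Icam1, at chr2:206742734-206743033 on the minus strand for Vcam1 and at chr13:78936264-78936563 on the plus strand for Sele. Capitals mark a match to the NF-kB consensus GGGRNNYYCC (R is A or G, Y is C or T, N is any base) or to GGAAATTCC. The latter is a shorter NF-kB-type motif that was picked after the Icam1 sequence had been seen.
Icam1: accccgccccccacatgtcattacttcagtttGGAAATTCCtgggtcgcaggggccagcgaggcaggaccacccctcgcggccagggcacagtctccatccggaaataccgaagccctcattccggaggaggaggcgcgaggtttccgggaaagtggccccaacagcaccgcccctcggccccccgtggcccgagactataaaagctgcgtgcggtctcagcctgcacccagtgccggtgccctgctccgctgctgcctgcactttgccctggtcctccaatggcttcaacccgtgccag
Vcam1: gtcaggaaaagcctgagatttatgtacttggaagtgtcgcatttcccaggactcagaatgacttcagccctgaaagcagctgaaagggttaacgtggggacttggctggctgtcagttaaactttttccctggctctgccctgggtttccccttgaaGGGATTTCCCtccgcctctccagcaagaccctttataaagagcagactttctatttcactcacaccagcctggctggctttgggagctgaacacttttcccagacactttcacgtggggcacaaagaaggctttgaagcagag
Sele: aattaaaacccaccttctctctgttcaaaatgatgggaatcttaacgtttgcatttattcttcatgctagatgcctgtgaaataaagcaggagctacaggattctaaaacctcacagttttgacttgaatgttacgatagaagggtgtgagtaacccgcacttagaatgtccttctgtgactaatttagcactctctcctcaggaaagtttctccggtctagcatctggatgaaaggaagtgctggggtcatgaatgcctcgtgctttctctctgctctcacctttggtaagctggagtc

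Positions are counted from the start of the gene, with -1 as the base before it. In Icam1 the letters GGAAATTCC lie at -218 to -210 and TATAAA at -53 to -48. In Vcam1 the NF-kB consensus lies at -93 to -84 and TATAAA at -60 to -55. The letters GGGTTTCCCC just before that match miss the consensus by a single base and are not marked. The Sele window holds neither NF-kB motif, which says only that these letters are not in it. The listed start of Sele is the first base of the letters ATG, a start codon. Its window may therefore not cover the promoter. Both strands were searched in 33469 promoters of the same length, of which 7.51% hold the consensus, 0.332% hold GGAAATTCC and 14.2% hold TATAAA; the shorter NF-kB motif can lie inside the consensus. Of the 35 genes, 23 have an entry in the promoter table, and 9 of these 23 hold the consensus (Vcam1, Ocln, Jam2, Plvap, Kdr, Flt1, Eng, Pdgfb and Cspg4). These 9 include the risen Flt1 and Eng, the fallen Ocln and 6 genes with neither call. How often risen, fallen and other genes held a match was not compared. Their consensus is rich in G and C, and the 23 promoters had a mean GC content of 58.1% against 52.7% over all promoters. The part of GC content in the number of matches was not tested. The AP-1-type motif TGANTCA was found in 1 of the 23, Abcb1a, and in 7.33% of all promoters. A match is a description of letters and not a binding site.

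Genes of the leukocyte side of these contacts were also counted. Of 9 genes for counter-receptors of the adhesion molecules, 6 passed the minimum, 4 rose (Cd44, Itgam, Itgb1 and Itgb2) and none fell, beside 6.56% and 6.12% of all genes that passed. Of the 6, 4 passed through IR12 alone, so the minimum favours higher values here: the median log2 ratio was 1.46 over the 6 and 0.96 over all 9. Cd44, a hyaluronan receptor that also binds E-selectin, was the most abundant, at 40.8 FPKM in CTRL and 299 FPKM in IR12. Itgb1, the integrin beta chain of VLA-4 and of many matrix receptors, was at 40.0 FPKM in CTRL and 117 FPKM in IR12. Both are also made by cells that are not leukocytes. The chains of Mac-1 had low values, with Itgam at 0.693 FPKM in CTRL and 5.71 FPKM in IR12, and Itgb2 at 0.198 and 2.16 FPKM. Selplg, the P-selectin ligand of leukocytes, named here after its value was seen, was under the minimum and lower in IR12, at 0.427 and 0.179 FPKM.

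Markers listed for infiltrating leukocytes moved in the same direction, and whether cells had entered the retina was not tested. Of 8 such markers 6 passed, 5 of them through IR12 alone, and 5 rose as deposited, beside 6.56% of all genes, or 6 on the TPM scale, beside 20.7%. Their summed level was 11.5 FPKM in CTRL and 123.9 FPKM in IR12. Lyz2, the lysozyme of myeloid cells, was the most abundant, at 9.73 FPKM in CTRL and 76.9 FPKM in IR12. S100a8 and S100a9, which neutrophils make in quantity, were at 0 and 0.199 FPKM in CTRL and at 12.8 and 23.0 FPKM in IR12, while Mpo was listed at 0 in both libraries. Itgam belongs to both lists. Blood and platelet markers summed to 20.8 FPKM in CTRL and 36.0 FPKM in IR12, nearly all of it Hbb, while the platelet genes Ppbp and Gp1bb were listed at 0 in both and Pf4 was at 0 in CTRL and 0.645 FPKM in IR12. The part of leukocytes and blood in the adhesion results, Selp and Icam1 included, was not tested.

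Cytokines that activate endothelium, and genes that NF-kB induces, were followed as a list of 13. Of these 11 passed, 7 rose and none fell, with a median log2 ratio of 1.46, while 6.56% of all genes that passed were at least 2-fold higher. On the TPM scale 10 of the 11 were, beside 20.7% of all genes. The 7 that rose are the 7 that passed through IR12 alone, and over the 6 genes with at least 5 FPKM in either library the median was 0.88. Il1b, an interleukin that switches on adhesion genes, was at 0.109 FPKM in CTRL and 12.1 FPKM in IR12, and Il1a was at 0.428 and 4.74 FPKM. Bcl3, a nuclear relative of the NF-kB inhibitors, was at 0.193 FPKM in CTRL and 9.24 FPKM in IR12. The list was not uniform: Tnf and Ifng were listed at 0 in both libraries, and of the NF-kB inhibitor genes Nfkbia (25.1 and 44.2 FPKM) and Tnfaip3 (40.9 and 31.9 FPKM) stayed within the limit as deposited, while Nfkbie, named here after its value was seen, rose from 0.556 to 3.29 FPKM. All 37 mitochondrial genes are listed at 0 as well, in both libraries, so a 0 in this table need not mean silence.

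Junction genes spread around no difference, with 1 of 6 lower past the limit as deposited, where 6.12% of all genes were, and none on the TPM scale, where 3.21% were. Their median log2 ratio was -0.28 as deposited and 0.26 on the TPM scale. Ocln, a membrane protein of tight junctions that pigment epithelium also makes, was at 2.91 FPKM in CTRL and 0.725 FPKM in IR12, an FPKM ratio of 4.02 in favour of CTRL. Its log2 ratio of -1.18 passed the limit as deposited but was -0.77 on the TPM scale. Cldn5, the main claudin of the endothelial barrier, was at 2.92 FPKM in CTRL and 1.65 FPKM in IR12, a log2 ratio of -0.57. Cdh5, the VE-cadherin of endothelial adherens junctions, was at 0.883 FPKM in CTRL and 1.63 FPKM in IR12, a log2 ratio of 0.48. So the endothelial claudin and the endothelial cadherin, both low, were on opposite sides of 0, each within the limit.

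The most abundant gene of the junction group is not specific to vessels. Tjp1, the scaffold protein ZO-1, which also lies at the outer limiting membrane between photoreceptors and Müller glia, was at 70.4 FPKM in CTRL and 70.5 FPKM in IR12. Jam2, a junctional adhesion molecule, was at 68.8 FPKM in CTRL and 39.9 FPKM in IR12, a log2 ratio of -0.77. Esam, an adhesion molecule of endothelial cells, was at 6.37 and 8.97 FPKM, a log2 ratio of 0.43. Among 15 further junction genes with a row 10 passed and none reached the upper or lower limit as deposited, beside 6.56% and 6.12% of all genes. Their median log2 ratio of -0.12 became 0.44 on the TPM scale, where only Ctnnb1 passed the upper limit, beside 20.7% of all genes. The most abundant of them, Ctnnb1, the catenin that ties cadherins to actin, was at 111 FPKM in CTRL and 166 FPKM in IR12. The largest difference was that of Cgn, the tight junction protein cingulin, at 5.63 and 2.47 FPKM, an FPKM ratio of 2.28 in favour of CTRL and a log2 ratio of -0.93, just inside the limit.

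Of the transport genes 1 of the 2 that passed the minimum fell, too few to set against the 6.12% of all genes as deposited or the 3.21% on the TPM scale, and their median log2 ratio of -1.14 came inside the limit on the TPM scale, at -0.69. Slco1a4, an organic anion transporter of the brain and retinal barriers, was at 15.4 FPKM in CTRL and 3.39 FPKM in IR12, an FPKM ratio of 4.54 in favour of CTRL. Its log2 ratio of -1.90 was the lowest of the list, and it was between -2.15 and -1.32 over the 5 settings. Mfsd2a, a lipid transporter that holds back vesicle transport in barrier endothelium, was at 1.21 FPKM in CTRL and 0.709 FPKM in IR12, a log2 ratio of -0.37. The quotient of these 2 values is 1.71, the same as that of 1 read between the libraries, so the difference in Mfsd2a is what equal numbers of reads would give. Plvap, a protein of vesicle and fenestra diaphragms that closed barriers lack, was under the minimum, at 0.613 and 0.675 FPKM.

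Other barrier transporters were mixed. Of 12 such genes with a row 11 passed, and as deposited none rose and 3 fell, beside 6.56% and 6.12% of all genes. On the TPM scale 1 was past the upper limit and only Slco1c1 past the lower, beside 20.7% and 3.21%, and the median log2 ratio of the list went from -0.31 to 0.14. Slco1c1, a thyroxine carrier, was at 13.3 FPKM in CTRL and 1.99 FPKM in IR12, a log2 ratio of -2.25. Abcg2, an efflux pump, was at 4.11 and 1.44 FPKM, and Tfrc, the transferrin receptor, was at 106 and 52.1 FPKM, with log2 ratios of -1.07 and -1.01 close to the limit. The most abundant, Bsg, a partner of monocarboxylate transporters found across the retina, was at 259 FPKM in CTRL and 222 FPKM in IR12. Slc2a1, the glucose transporter of the barrier, named here after its value was seen, was at 39.4 FPKM in CTRL and 34.3 FPKM in IR12.

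Several of these genes are also made by glia or pigment epithelium, so markers of both were counted. Of 7 Müller glia markers all passed, and as deposited 5 fell and 1 rose, beside 6.12% and 6.56% of all genes. On the TPM scale 4 were past the lower limit and 2 past the upper, beside 3.21% and 20.7%. Their summed level was 1167 FPKM in CTRL and 444.2 FPKM in IR12. The sum mixes directions, since Vim was at 121 FPKM in CTRL and 220.9 FPKM in IR12, and the other 6 markers summed to 1046 and 223 FPKM. Glul, glutamine synthetase, was the most abundant in CTRL, at 753.7 FPKM, and was at 125.7 FPKM in IR12. Aqp4, the water channel of glial endfeet on vessels, was at 48.0 FPKM in CTRL and 4.16 FPKM in IR12. Gfap, which reactive glia make, went the other way, from 2.95 FPKM to 21.9 FPKM. Pigment epithelium markers summed to 78.6 FPKM in CTRL and 98.3 FPKM in IR12, but Ttr alone was at 61.8 and 87.4 FPKM and the other 5 markers summed to 16.7 and 10.9 FPKM. Of the 4 that passed 1 fell as deposited, Rpe65, at 11.1 and 4.88 FPKM, beside 6.12% of all genes. On the TPM scale none was past the lower limit and Ttr was past the upper, beside 3.21% and 20.7%. The part of glia and pigment epithelium in the values of Ocln, Slco1a4 and the other transporters was not tested. In bulk tissue, fewer cells of a type and less RNA per cell cannot be told apart.

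**Figure D2:**
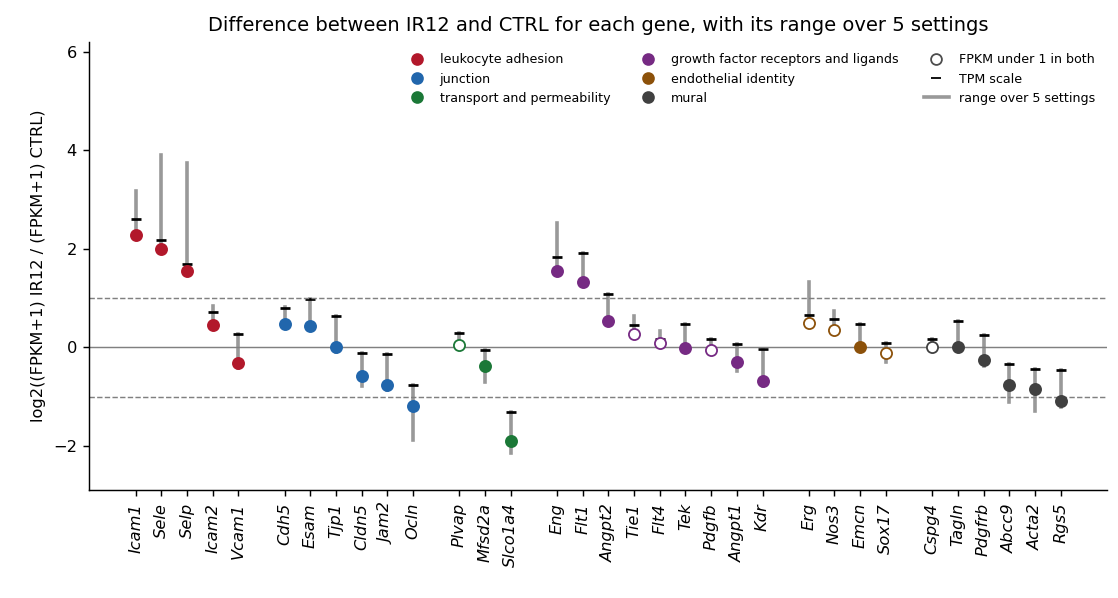
Log2 ratio of FPKM plus 1, IR12 over CTRL, for the 33 genes by role. Circles are values as deposited (open where FPKM was under 1 in both libraries), grey lines span 5 settings of scale and pseudocount, black ticks mark the TPM scale, and dashed lines mark the 2-fold limit; Icam1, Sele, Selp, Eng and Flt1 lie above the upper dashed line over their whole span, and Slco1a4 below the lower one.

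Among growth factor receptors, the VEGF receptors parted. Kdr, the main signalling receptor for VEGF-A, was the most abundant gene of the whole list in CTRL, at 108 FPKM, and was at 66.8 FPKM in IR12, a log2 ratio of -0.68 that became -0.04 on the TPM scale. Flt1, which binds VEGF-A tightly and also occurs as a soluble decoy, was at 12.3 FPKM in CTRL and 32.3 FPKM in IR12, an FPKM ratio of 2.62. Its log2 ratio was 1.32, and 1.27 to 1.92 over the 5 settings. Kdr thus stood 8.73-fold above Flt1 in CTRL and 2.07-fold above it in IR12, and this quotient within a library does not depend on how the libraries were scaled. Flt4, the receptor for VEGF-C, was near the floor at 0.153 and 0.220 FPKM.

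The level of Kdr was far above that of Cdh5. It was 122-fold that of Cdh5 in CTRL and 40.9-fold in IR12, on a scale per transcript length. Kdr has also been described in retinal neurons, and how much of its signal came from vessels was not tested. Of 6 retinal ganglion cell markers 5 passed the minimum and none reached the upper or lower limit as deposited, beside 6.56% and 6.12% of all genes. The 6 summed to 308 FPKM in CTRL and 250.2 FPKM in IR12, with Nefl the most abundant. The 5 rod markers summed to 7550 FPKM in CTRL and 9793 FPKM in IR12, none past the limit as deposited, with Gnat1 the most abundant in CTRL and Sag in IR12.

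Eng, endoglin, a co-receptor for BMP9 and TGF-beta on endothelial cells, was at 0.530 FPKM in CTRL and 3.52 FPKM in IR12, an FPKM ratio of 6.63 and a log2 ratio of 1.56. Macrophages can make it too. The receptor it works with, Acvrl1, named here after its value was seen, was at 0.851 and 1.01 FPKM, so the co-receptor rose and its partner stayed within the limit. Tek, the receptor for angiopoietins, was at 3.46 FPKM in CTRL and 3.40 FPKM in IR12. Tie1, its orphan relative, was under the minimum at 0.423 and 0.712 FPKM.

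The angiopoietins leaned apart within the limit. Angpt1, the mural cell ligand that activates Tek and steadies vessels, was at 1.58 FPKM in CTRL and 1.10 FPKM in IR12. Angpt2, its endothelial counterpart, which can block Tek, was at 5.21 FPKM in CTRL and 8.02 FPKM in IR12. The log2 ratio of Angpt2 was 0.54 as deposited and 1.08 on the TPM scale, where that of Angpt1 turned from -0.29 to 0.07. Pdgfb, the endothelial signal that holds pericytes, was under the minimum at 0.622 and 0.556 FPKM. The median log2 ratio of the 6 genes of this group that passed was 0.26.

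Of the ligands and partners of these receptors, 17 have a row and 12 passed the minimum. As deposited 1 rose and 1 fell, shares not far from the 6.56% and 6.12% of all genes. On the TPM scale 1 was past the upper limit and none past the lower, beside 20.7% and 3.21%. Pdgfra, the gene that fell as deposited, was just inside the limit there. The median log2 ratio of the list turned from -0.19 to 0.27 on that scale. Vegfa, the ligand of Kdr and Flt1, was the most abundant, at 56.0 FPKM in CTRL and 43.5 FPKM in IR12, so it did not rise with Flt1. Angptl4, an angiopoietin-like protein induced by hypoxia and fatty acids, was at 1.42 FPKM in CTRL and 9.45 FPKM in IR12, a log2 ratio of 2.11. Pdgfra, the PDGF receptor of astrocytes and fibroblasts, was at 7.28 FPKM in CTRL and 1.88 FPKM in IR12, a log2 ratio of -1.52. It is also the most abundant of 5 fibroblast markers, which summed to 8.12 FPKM in CTRL and 2.04 FPKM in IR12, while Col1a2 was listed at 0 in both and the other fibroblast markers were under 1 FPKM.

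Genes of endothelial identity were low, and 3 of the 4 were under 1 FPKM in both libraries, where the log2 scale used here says little about a difference. Emcn, endomucin, a surface sialomucin of capillaries and veins, was at 3.12 FPKM in CTRL and 3.14 FPKM in IR12, the only one of 4 past the minimum. Nos3, the endothelial nitric oxide synthase, was at 0.526 and 0.946 FPKM. The transcription factor gene Erg was at 0.238 and 0.743 FPKM, a log2 ratio of 0.49 that became 1.32 with a pseudocount of 0.1, and Sox17 was at 0.550 and 0.429 FPKM. The log2 ratio of Emcn was 0.01, and 0.48 on the TPM scale, where the median of all genes was 0.59. As deposited, endothelial genes at 1 FPKM or more in both libraries did not move as 1 group. Esam at 0.43, Angpt2 at 0.54 and Flt1 at 1.32 were on one side, Cldn5 at -0.57 and Kdr at -0.68 on the other, and Emcn and Tek between them. The part of vessels in the value of Kdr was not tested, and without Kdr only Cldn5 is left on the lower side.

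In a wider list of endothelial genes 24 have a row and 18 passed. As deposited 2 rose and 2 fell, beside 6.56% and 6.12% of all genes. On the TPM scale 4 were past the upper limit and none past the lower, beside 20.7% and 3.21%. The median log2 ratio of the list, 0.23, has no firm direction. It was 0.66 on the TPM scale and -0.26 over the 6 genes with at least 5 FPKM in either library. Sox7, an endothelial transcription factor gene, was at 0.0632 FPKM in CTRL, under the value of 3 reads at 930 bases, and 3.21 FPKM in IR12, and Ets1 was at 2.27 and 6.70 FPKM. Ackr3, a scavenger receptor for chemokines, was at 10.0 FPKM in CTRL and 3.44 FPKM in IR12. Cav1, the caveolin that Müller glia also make, was at 116 and 50.1 FPKM. The most abundant, Sparcl1, which astrocytes and Müller glia make as well, was at 128 FPKM in CTRL and 91.0 FPKM in IR12.

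**Figure D3:**
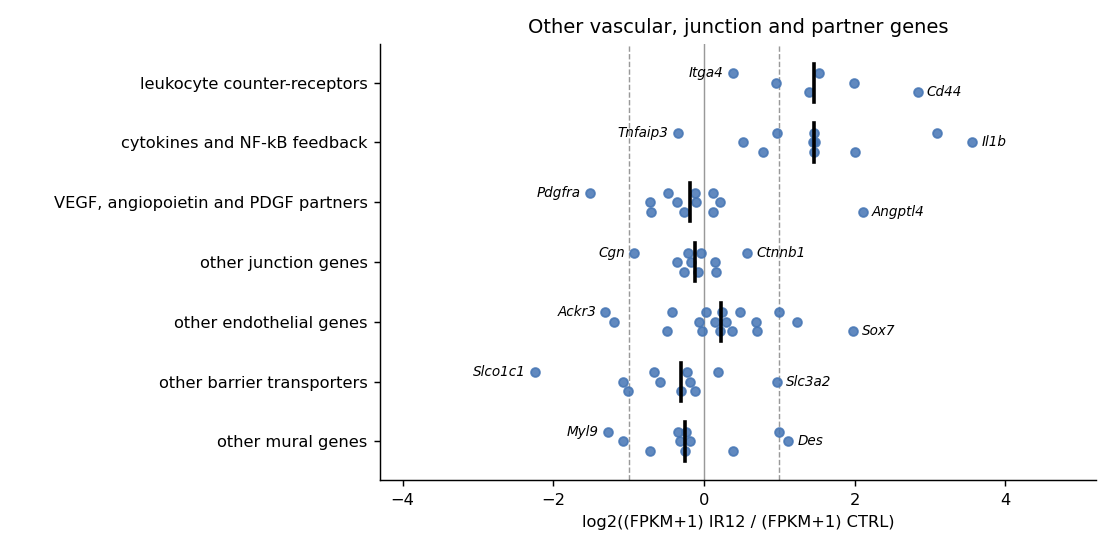
Log2 ratio of FPKM plus 1, IR12 over CTRL, for the genes of 7 further lists that passed the minimum. Each point is a gene, black bars are list medians, dashed lines mark the 2-fold limit, and the lowest and highest gene of each list are named; the medians of the counter-receptor and cytokine lists, both 1.46, lie right of the dashed line with this minimum and the other 5 lie between -0.31 and 0.23.

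Mural genes were level or lower as deposited, and the 5 of 6 that passed had a median log2 ratio of -0.77, or -0.33 on the TPM scale. Rgs5, a regulator of G protein signalling abundant in pericytes, was at 38.6 FPKM in CTRL and 17.6 FPKM in IR12, an FPKM ratio of 2.19 in favour of CTRL. Its log2 ratio of -1.09 passed the limit, and it was -0.46 on the TPM scale. Abcc9, the sulfonylurea receptor of the pericyte potassium channel, was at 2.97 FPKM in CTRL and 1.33 FPKM in IR12, an FPKM ratio of 2.23 and a log2 ratio of -0.77. Kcnj8, the pore of the same channel, named here after its value was seen, was at 1.48 and 1.10 FPKM. Acta2, smooth muscle actin, was at 2.56 FPKM in CTRL and 0.989 FPKM in IR12, an FPKM ratio of 2.59 and a log2 ratio of -0.84. The FPKM of Acta2 and Abcc9 thus differed more than that of Rgs5, and both passed the limit with a pseudocount of 0.1, at -1.29 and -1.10, and on the same sum without small non-coding RNAs, at -1.13 and -1.01.

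The receptor that defines pericytes differed little. Pdgfrb, which receives the Pdgfb signal, was at 4.59 FPKM in CTRL and 3.66 FPKM in IR12, a log2 ratio of -0.26 that became 0.25 on the TPM scale. Cspg4, the NG2 proteoglycan, was under the minimum at 0.379 and 0.386 FPKM. Tagln, an actin-binding protein of smooth muscle, was at 5.05 FPKM in CTRL and 5.09 FPKM in IR12, unlike Acta2. Of 17 further mural genes 11 passed, and as deposited 1 rose and 2 fell, again beside 6.56% and 6.12% of all genes. On the TPM scale 2 were past the upper limit and none past the lower, beside 20.7% and 3.21%. The median log2 ratio of this list turned from -0.25 to 0.11 on that scale. Des, the muscle filament desmin, was at 0.296 FPKM in CTRL and 1.81 FPKM in IR12. Myl9, a light chain of smooth muscle myosin, was at 4.61 and 1.31 FPKM, and Zic1, a transcription factor gene, was at 2.27 and 0.553 FPKM. The most abundant, Cald1, was at 17.5 FPKM in CTRL and 23.3 FPKM in IR12.

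Markers of tissue that lies next to the retina differed between the libraries too. All 6 lens markers fell, beside 6.12% of all genes as deposited, and all 6 were past the lower limit on the TPM scale, beside 3.21%. Their summed level was 2951 FPKM in CTRL and 353 FPKM in IR12, with Cryba1 the most abundant at 1614 and 196.3 FPKM. Markers of corneal and conjunctival epithelium summed to 12.5 FPKM in CTRL and 17.0 FPKM in IR12. Among them Cdh1 was at 10.7 and 1.62 FPKM, Krt12 was at 0.874 and 12.5 FPKM, and Krt5 and Krt14 were listed at 0 in CTRL. Of 5 microglia markers 4 passed and none reached the upper or lower limit as deposited, beside 6.56% and 6.12% of all genes. The 5 summed to 12.1 FPKM in CTRL and 12.5 FPKM in IR12. Aif1 was the most abundant, and P2ry12, at 1.67 and 0.650 FPKM, had an FPKM ratio of 2.56 in favour of CTRL. The part of lens and other neighbouring tissue in the mural and transport values was not tested.

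**Figure D4:**
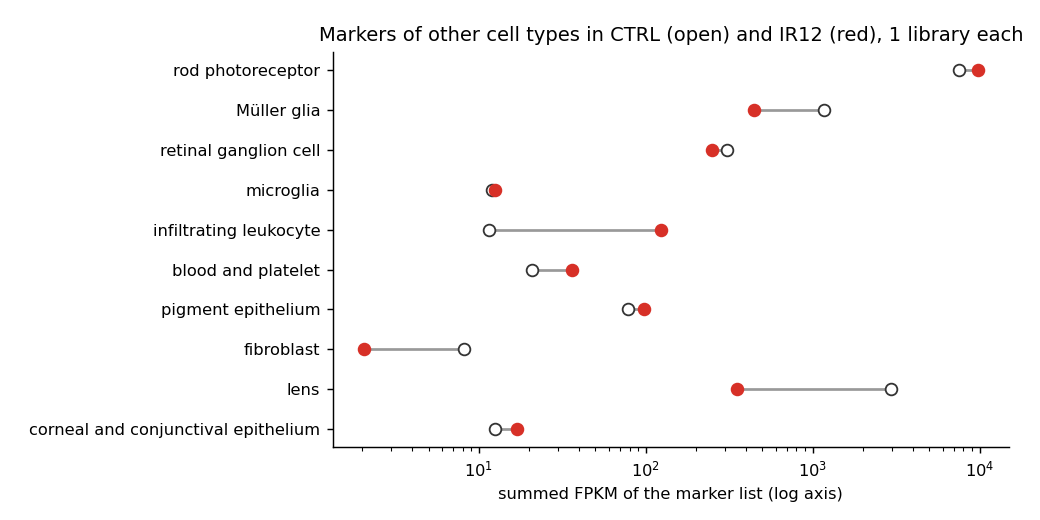
Summed FPKM of the markers of 10 other cell types on a log axis, with CTRL as open and IR12 as red circles, 1 library each. Infiltrating leukocyte markers went from 11.5 to 123.9 FPKM, Müller glia markers from 1167 to 444.2 FPKM and lens markers from 2951 to 353 FPKM.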

How the data were processed

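Retinal RNA of CTRL and IR12, 1 library each, was analysed from the gene table that the authors deposited, whose values are FPKM. The submitters' processing notes name STAR 2.5.2b, Cuffdiff 2.2.0 and the rn6 build. Groups follow the sample labels, and both value columns were used. The genes and lists were chosen with earlier results of these data known, and genes were matched by exact symbol. Certain genes were taken out of the further lists and are not reported here. List counts, sums and medians were computed without them, and include measured genes that the text does not name. Log2 ratios of FPKM with a pseudocount of 1, the counts past 2-fold and the medians were computed in Python 3.11.15 with numpy 2.4.6 and pandas 2.3.3, and figures were drawn with matplotlib 3.10.9. The code for the counts was tested on simulated data. With 1 library per condition there are no p-values. Read depth is not in the table. The lowest repeated FPKM of olfactory receptor genes was compared at 5 locus lengths from 930 to 948 bases, where 53 of the 67 values above 0 were the lowest itself and the other 14 were whole multiples of it within 0.01, and the quotient of CTRL over IR12 was 1.71 at all 5. The text names all listed genes, and from each further list the most abundant gene and up to 3 with the largest absolute log2 ratio among those that passed the minimum. Genes that complete a short count, single markers and partner genes beyond this rule were picked with their values in view. The other settings tried were centring on the median gene, a pseudocount of 0.1, the TPM scale with and without small non-coding RNAs, a minimum of 5 FPKM or none, a fold of 1.5, and group medians relative to that of the junction, growth factor and identity genes. Promoters came from the RefSeq table on GRCr8, matched by symbol.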

Additional observations from a re-analysis of the deposited data

How the results depend on the processing

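Of 229 values recomputed under the alternatives 204 stayed within a fixed limit of 1.5-fold, or 0.58 on the log2 scale. All come from the same 2 libraries, so the limit says nothing about the spread between animals. A reversal was looked for only in single genes that had risen or fallen as deposited, and none of these changed sign. Some medians within the 2-fold limit did change sign, such as that of the junction genes, from -0.28 to 0.26 on the TPM scale. With a minimum of 5 FPKM, 11 genes passed and 2 were at least 2-fold higher, because Sele, Selp and Eng dropped out, beside 6.37% of all genes. The genes at least 2-fold lower, 3 as reported, numbered 5 with a pseudocount of 0.1 (8.65% of all genes), 5 on the same sum without small non-coding RNAs (8.42%) and 1 on the TPM scale (3.21%). Both counts of 5 add Acta2 and Abcc9. With the limit at 1.5-fold 7 genes were lower, beside 13.7% of all genes, and 5 were higher, beside 14.8%. The adhesion median was 3.18 with a pseudocount of 0.1 and 2.24 on the same sum without small non-coding RNAs, where values are larger beside the pseudocount. With a pseudocount of 0.1 the medians of the cytokine and counter-receptor lists were 2.37 and 2.87. Some medians came under the 2-fold limit: 0.98 for adhesion and 0.88 for cytokines with a minimum of 5 FPKM, and 0.96 for counter-receptors with no minimum. The transport median, -1.14 as reported, was -0.69 on the TPM scale, -1.90 with a minimum of 5 FPKM, from 1 gene, and -0.37 with no minimum, from 3 genes. With a minimum of 5 FPKM the median of the further mural genes was 0.69 over 2 genes, and the endothelial identity group had no value. Setting the groups against the median of the junction, growth factor and identity genes changed nothing by construction, since that median was 0.00, and these values are not counted above. Among single genes 119 of 132 values stayed within the limit. Depth limits the selectins, Flt4 and Erg in CTRL, whose values lie under that of 3 reads at 930 bases. No paired analysis was possible because each condition has 1 library, and no replicate could be left out.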

Other observations

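Sele (chr13:82355471-82365341) and Selp (chr13:82429063-82464628), which both rose, lie close to each other on chromosome 13 of rn6. The gene after Selp, F5 (chr13:82479998-82535534), which encodes coagulation factor V, went the other way, from 20.9 FPKM in CTRL to 1.62 FPKM in IR12, a log2 ratio of -3.06. Slc19a2, the gene after it, was at 18.4 and 20.8 FPKM, and Mettl18, on the other side of Sele, was at 10.0 and 11.1 FPKM. Neighbours were named after their values were seen.

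On chromosome 8 the genes that follow Icam1 (chr8:22035256-22047059), Icam4 and Icam5, stayed near the floor, at 0 and 0.0223 FPKM in CTRL and at 0.0591 and 0.0782 FPKM in IR12. On chromosome 4 the organic anion transporters that fell, Slco1c1 (chr4:175729726-175776808) and Slco1a4 (chr4:175969549-176026163), belong to 1 cluster. Slco1b2 and Slco1a1, also in this cluster, were listed at 0 in both libraries.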
